A study of Mus musculus with 4 samples.

Results

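The renin-angiotensin system genes examined here are Ren1, Agt, Ace, Agtr1a, Agtr1b, Enpep, Mme and Anpep, 8 of the 31053 mouse genes in the count tables, and each was taken by its gene symbol. They were followed through single-cell RNA sequencing of kidneys from male C57BL/6 mice aged 19 months at the start, which then received BPTES, an inhibitor of the glutaminase GLS1, or its vehicle DMSO for 1 month. Each treatment had 2 libraries, called BPTES 1, BPTES 2, DMSO 1 and DMSO 2 below, and the labels do not say whether the libraries came from separate animals, so the spread between libraries may be technical. Kidneys were digested and sorted on CD45, the surface protein of leukocytes, and 20000 CD45-negative and 9000 CD45-positive cells were mixed for each library, so the cell numbers carry the sort. The comparison asks in which kidney cells each gene is transcribed and whether BPTES changes its level there.

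Renin, the product of Ren1, is a protease released by juxtaglomerular cells, modified smooth muscle cells at the wall of the afferent arteriole. It cuts angiotensinogen, the product of Agt, to angiotensin I, from which the peptidase ACE makes angiotensin II. Angiotensin II acts on AT1 receptors, which mice encode in 2 genes, Agtr1a and Agtr1b, to constrict vessels and to raise sodium uptake by the tubule. Enpep (aminopeptidase A), Anpep (aminopeptidase N) and Mme (neprilysin) encode membrane peptidases that shorten the angiotensins. The kidney makes these components locally, with angiotensinogen from the late proximal tubule among the best known.

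The coordinates are those of mouse build GRCm38, the build named mm10 in the submitters' processing notes. Ren1 is at chr1:133350510-133360325, Agt at chr8:124556534-124569706, Ace at chr11:105967945-105989964 and Agtr1a at chr13:30336441-30382867. Agtr1b is at chr3:20314473-20367177, Enpep at chr3:129269175-129332720, Mme at chr3:63241537-63386030 and Anpep at chr7:79821803-79861059, and all 8 are annotated as protein-coding. Ace and Enpep each overlap 1 annotated gene on the other strand (Gm11651 and Gm42628), and Agtr1a and Anpep each overlap 1 on their own strand (Gm48161 and Gm44974). How the authors assigned reads in such overlaps is not given in the sources used here.

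The promoter windows of 7 of the 8 genes were found in a RefSeq table of the same build (GRCm38.p6), each running from 250 bases before a RefSeq start to 50 bases after it. That start is the annotated gene start given above in Agt and Agtr1b but not in the other 5 genes: in Ren1 it is base 133350674, inside the annotated gene, and in Ace base 105967948. The windows of Ren1, Agt and Ace (the first of its 2 starts) are shown because their products make the hormone, from the protease and its substrate to the converting enzyme. Capitals mark a match to the TATA box letters TATAAA, read on both strands.
Ren1 promoter, chr1:133350424-133350723, plus strand: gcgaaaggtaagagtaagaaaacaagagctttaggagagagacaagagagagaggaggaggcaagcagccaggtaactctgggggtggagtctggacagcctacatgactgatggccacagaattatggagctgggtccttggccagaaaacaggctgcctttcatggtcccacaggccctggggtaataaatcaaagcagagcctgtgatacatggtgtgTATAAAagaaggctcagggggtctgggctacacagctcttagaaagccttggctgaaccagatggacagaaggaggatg
Agt promoter, chr8:124569657-124569956, minus strand: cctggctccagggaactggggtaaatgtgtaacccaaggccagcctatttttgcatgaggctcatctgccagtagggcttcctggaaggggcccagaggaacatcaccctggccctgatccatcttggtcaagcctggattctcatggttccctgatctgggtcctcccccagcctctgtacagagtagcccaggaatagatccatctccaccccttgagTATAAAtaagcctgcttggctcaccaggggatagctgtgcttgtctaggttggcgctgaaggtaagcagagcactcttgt
Ace promoter, chr11:105967698-105967997, plus strand: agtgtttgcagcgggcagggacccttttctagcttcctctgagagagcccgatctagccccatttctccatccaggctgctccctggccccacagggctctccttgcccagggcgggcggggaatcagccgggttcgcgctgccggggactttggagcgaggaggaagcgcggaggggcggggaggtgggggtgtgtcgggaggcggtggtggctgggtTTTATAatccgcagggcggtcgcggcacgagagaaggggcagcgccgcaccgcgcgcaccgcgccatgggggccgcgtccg
The match began 29 bases before the start in Ren1, 30 bases before it in Agt and 31 bases before it in Ace, where it was on the opposite strand and reads TTTATA. Agtr1b held the same letters 31 bases before its start, and Enpep held them on the opposite strand at 52 bases and at 1 base before its start. Of 32851 windows of this length in the table, 13.6% held a match on either strand. The cAMP response element letters TGACGTCA and the HNF1 half-site letters GTTAATNA, found in 1.79% and 2.54% of all windows, had no match in the windows of these genes.

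Each library held between 249881074 and 297947661 UMIs (unique molecular identifiers, each standing for 1 captured transcript, read here from its 3′ end) in 17907 to 20091 barcodes. After filters on mitochondrial share and predicted doublets, 48039 of 76278 barcodes were clustered without the 8 genes into 51 clusters. Marker genes named these as 23 classes, and 9 clusters stayed unnamed; a name means only that a cluster is like that cell type. Levels are in CPM, a gene's share of the UMIs of a class in 1 library scaled to 1000000, and are compared between classes for 1 gene at a time. Barcodes do not carry the sort, so the CD45-positive and CD45-negative sums below take each cluster by its best marker list, leukocyte or not. Cycling clusters were counted as CD45-positive, among them cluster 45, with 8.68 CPM of Agt and 21.2 CPM of Enpep. Classes with at least 20 cells in every library, 29 in all, were tested with edgeR's quasi-likelihood test on UMI sums. Log2 fold changes are BPTES over DMSO, for 2 libraries against 2. Their SE was derived from the test, as the absolute log2 fold change divided by the square root of its F statistic. An exact permutation test of a single value cannot go below p = 0.333 in this design, so calls rest on edgeR's test, with a Benjamini-Hochberg adjusted p under 0.05. At this resolution no cluster was named as podocyte or mural cell, the smooth muscle cells, pericytes and mesangial cells of the vessel wall and glomerulus. At Leiden resolution 2, the finer clustering used as an alternative, a cluster of 171 cells led by Rgs5, Acta2 and Myh11 was named as mural cell.

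The 8 genes did not all share a principal class. Among retained cells, Ren1 and Agtr1b lay mostly in unnamed cluster 38 (led by Dcn, Rgs5 and Acta2), which held 296 of 323 Ren1 UMIs and 52 of 59 Agtr1b UMIs. In this cluster 7 of 7 fibroblast markers and 5 of 7 mural markers were found in at least 20% of cells. Agt was highest in the thin limb, Ace in nonclassical monocytes, Agtr1a in fibroblasts, Enpep in cluster 38, Mme in intercalated cells and Anpep in type 1 dendritic cells. Clusters and levels come from the same cells, so these orders are a description with no test. Of 65 pairs of a gene and a class with enough counts, 3 were called by edgeR: Agt fell in both proximal tubule segments and Agtr1a rose in segment S1-S2. Over all genes and the same classes 1.67% of pairs were called, and 19 of the 65 pairs had an unadjusted p under 0.05, against 13.2% of all pairs of a gene and a class. In the 41 pairs with a mean of at least 10 CPM, the level was higher under BPTES in 26 and lower in 15, with log2 fold changes from -0.9995 to 2.02. Pairs of 1 gene share the same libraries, and all 6 such pairs of Ace were higher. The share by direction over all genes at this level was not computed, so no lean of the pathway is read from these counts.

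**Figure D1:**
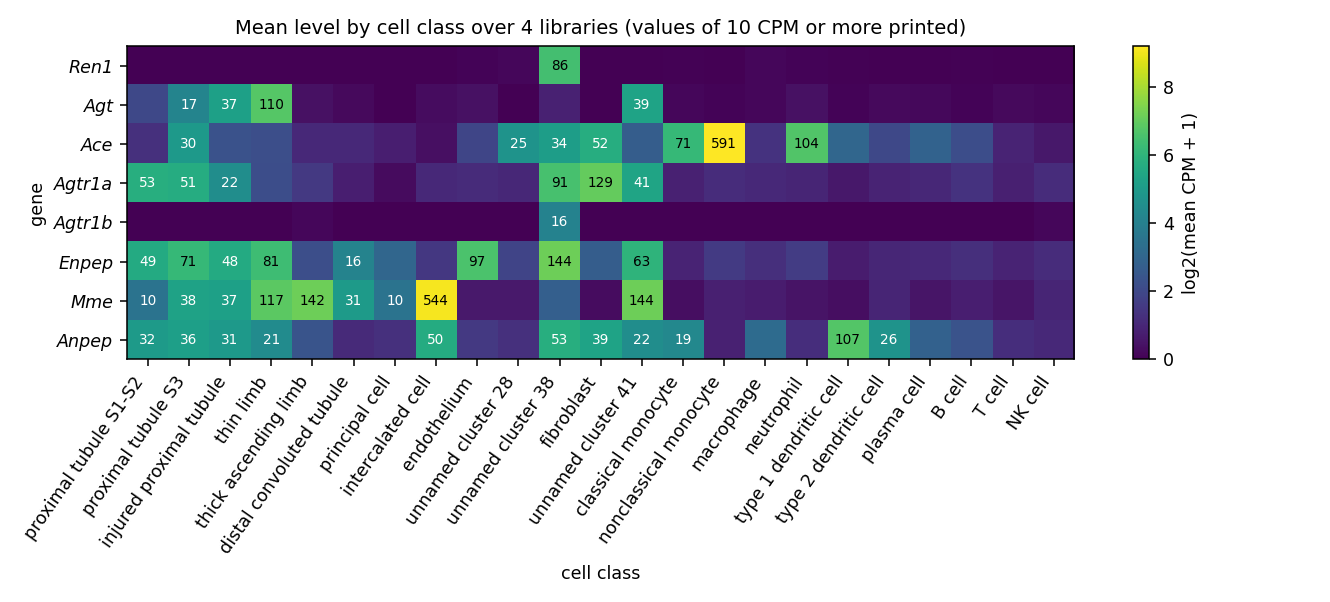
Mean level of each gene (rows) by cell class or cluster (columns) over the 4 libraries, coloured by log2(mean CPM + 1), with values of 10 CPM or more printed. Nonclassical monocytes stand out for Ace (591 CPM), intercalated cells for Mme (544 CPM), and cluster 38 for Ren1 (86 CPM).

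Ren1, the gene of the protease that starts the cascade, was found in very few barcodes. Over all 76278 barcodes there were 1152 Ren1 UMIs, of which 1126 (97.7%) lay in 12 barcodes with 8 or more each. The other 26 barcodes with Ren1 held 1 UMI each, so the limit of 8, set after the values were seen, falls in a wide gap. BPTES 1 had 5 of the rich barcodes, BPTES 2 had 1, DMSO 1 had 4 and DMSO 2 had 2. The richest barcode of each library held 124, 115, 430 and 161 Ren1 UMIs in the same order. Both treatments had barcodes rich in Ren1.

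Most barcodes rich in Ren1 also held UMIs of mural genes. Rgs5, a regulator of G-protein signalling known from pericytes, Acta2, the smooth muscle actin, and Agtr1a each had UMIs in 11 of the 12. Myh11, the smooth muscle myosin, had UMIs in 8. In T cells, which should lack them, Rgs5, Acta2, Myh11 and Agtr1a had UMIs in 0.0981%, 0.442%, 0.0491% and 0.883% of cells, at a median depth of 11534 UMIs against 27763 in the 12 barcodes. The levels varied widely: the richest barcode, with 430 Ren1 UMIs, held 16 Rgs5, 2 Acta2 and 0 Myh11 UMIs, whereas one with 70 Ren1 UMIs held 401, 504 and 153. Lrp2, the proximal tubule gene of megalin, had 1 to 3 UMIs in 5 of the 12, and a UMI in 20.8% of T cells. Akr1b7, an aldo-keto reductase known from juxtaglomerular cells, had UMIs in 8 of the 12 and in 0.0981% of T cells, and the 12 held 53 of its 327 UMIs over all barcodes. The leukocyte gene Ptprc had UMIs in 2 of the 12, both in DMSO 1: a barcode of the macrophage class with 9 Ren1 and 13 Ptprc UMIs, and a predicted doublet with 46 Ren1 and 44 Ptprc UMIs.

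The doublet filter decided most of the Ren1 count. Predicted doublets held 824 Ren1 UMIs, 71.5% of the total, and 5 of the 12 rich barcodes were among them, although Scrublet's own threshold marked none of the 12. For the other 7 genes the share of UMIs in predicted doublets was 4.84% to 12.9%. Retained cells held 193 (BPTES 1), 3 (BPTES 2), 112 (DMSO 1) and 15 (DMSO 2) Ren1 UMIs. Over all barcodes the libraries held 264, 119, 592 and 177, or 0.891, 0.476, 1.99 and 0.596 CPM of the whole library. The groups overlapped either way.

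In cluster 38 Ren1 was 209.5 CPM in BPTES 1, listed at 0 in BPTES 2, 124 CPM in DMSO 1 and 10.3 CPM in DMSO 2. The log2 fold change was 0.66 ± 1.95 (SE; adjusted p = 0.997, edgeR's quasi-likelihood test), a value that depends on the library at 0. In the sum of all CD45-negative cells it was 0.76 ± 1.71, adjusted p = 0.886, edgeR, and with predicted doublets retained it was -0.84, adjusted p = 0.627 (edgeR). The sign turned with the filter, and neither value was called. In such sums, fewer expressing cells and less RNA per cell cannot be told apart.

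**Figure D2:**
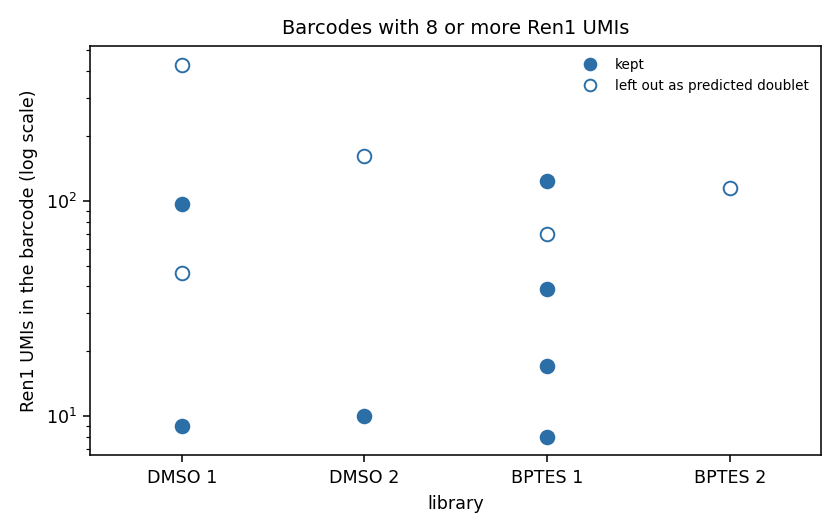
Ren1 UMIs per barcode (log axis) for the 12 barcodes with 8 or more, by library; filled points were retained and open points were left out as predicted doublets. The richest barcode is an open point in DMSO 1 (430 UMIs), DMSO 2 (161) and BPTES 2 (115), and a filled one in BPTES 1 (124).

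Agt, the gene of angiotensinogen, was a transcript of the thin limb and the late proximal tubule. It was 110.1 ± 41.4 CPM in the thin limb, 39.1 ± 25.1 in unnamed cluster 41 (led by Kcnip4, Ptgds and Cdh6), 36.5 ± 10.8 in injured proximal tubule cells, 16.7 ± 5.37 in the straight segment S3 and 2.95 ± 1.74 in the convoluted segments S1-S2 (mean ± SD, n = 4 libraries). Cluster 41 stayed unnamed: parietal epithelium was its best marker list, but injured proximal tubule markers led among its leading genes. It held 11 and 8 cells under BPTES against 63 and 132 under DMSO. Cluster 41 overlapped both injured cells and S3 within 1 SD, while the thin limb stood above cluster 41 and S3 above S1-S2. An Agt UMI was found in 20.3% to 40.98% of thin limb cells and 15.9% to 30.1% of S3 cells. In T cells, which should lack it, the share was 0 to 0.502%, with median depths of 11162.5 to 11725 UMIs against 22069 to 27209 in S3. Thinned to 5000 UMIs a cell, the shares were 13.5% to 31.4%, 4.19% to 9.32% and 0 to 0.208% in the same order.

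Agt was lower under BPTES in the proximal tubule. In S3 it was 12.9 and 11.3 CPM under BPTES against 20.9 and 21.8 under DMSO, with both BPTES libraries below both DMSO libraries. The log2 fold change was -0.74 ± 0.12 (SE; adjusted p = 0.0161, edgeR), a 1.67-fold lower level. Agt was the 1 of 6 tested members called in S3, where 0.761% of all genes were called. It was called in S3 under every alternative that summed the whole segment, with log2 fold changes from -0.83 to -0.62.

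In S1-S2 Agt was 1.700 and 1.65 CPM under BPTES against 3.12 and 5.35 under DMSO, on 856 UMIs. The groups did not overlap, and DMSO 2 was the highest. The log2 fold change was -1.29 ± 0.28 (SE; adjusted p = 0.0266, edgeR), or 2.44-fold lower. In this segment 19.8% of all genes were called, and 2 of 6 tested members were (Agt and Agtr1a). The Agt call was lost without BPTES 1 (-1.26, adjusted p = 0.1000), without BPTES 2 (-1.31, adjusted p = 0.165), with predicted doublets retained (-1.09, adjusted p = 0.0705) and at the finer clustering (-1.22, adjusted p = 0.0523), all by edgeR.

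Summed over both segments, Agt was 5.22 and 3.71 CPM under BPTES against 9.37 and 11.7 under DMSO and was called (-1.16 ± 0.17, adjusted p = 0.0399, edgeR), the 1 member called of 6, where 0.699% of all genes were. S3, the segment richer in Agt, gave 31.5% and 21.3% of the UMIs of this sum under BPTES against 35.2% and 38.4% under DMSO, and the part of this mix in the summed value was not tested. The call in the sum was lost without BPTES 2 (-0.98, adjusted p = 0.197), with the 25% mitochondrial limit (-1.11, adjusted p = 0.0563) and with predicted doublets retained (-1.15, adjusted p = 0.0622), all by edgeR. In the sum of all CD45-negative cells the value was -0.96 ± 0.21, adjusted p = 0.411, edgeR, not called, and 0.00536% of all genes were called there. DESeq2 called it (adjusted p = 0.00507), as did edgeR without DMSO 1 (-1.06, adjusted p = 0.0274). The S3 effect minus the S1-S2 effect was 0.53 ± 0.23 and was not called (adjusted p = 0.123, edgeR), but it was by edgeR without the low-count filter (0.54, adjusted p = 0.00465), without BPTES 2 (0.62, adjusted p = 0.00494) and without DMSO 1 (0.88, adjusted p = 0.000387).

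The single clusters are parts of these sums in the same libraries, so they are no independent repeat. They were tested as an alternative added after the data were seen. All 7 proximal tubule clusters with enough Agt counts had a negative log2 fold change, from -1.45 to -0.55, and both BPTES libraries were below both DMSO libraries in each. Cluster 0 of S1-S2 (led by Spp2, Apob and Gpx3) was at 2.43 and 1.98 CPM under BPTES against 5.14 and 7.29 under DMSO and was called (-1.45, adjusted p = 0.00634, edgeR), where 0.927% of all genes were called. Cluster 8 of S3 (led by Gm45792, Gm42397 and Erc2) was at 7.44 and 5.66 CPM under BPTES against 17.9 and 18.4 under DMSO and was called (-1.41, adjusted p = 0.00132, edgeR), where 0.8% of all genes were called. Cluster 1, the larger S3 cluster, was at 16.5 and 15.9 CPM under BPTES against 23.3 and 25.2 under DMSO and was not called (-0.55, adjusted p = 0.393, edgeR).

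**Figure D3:**
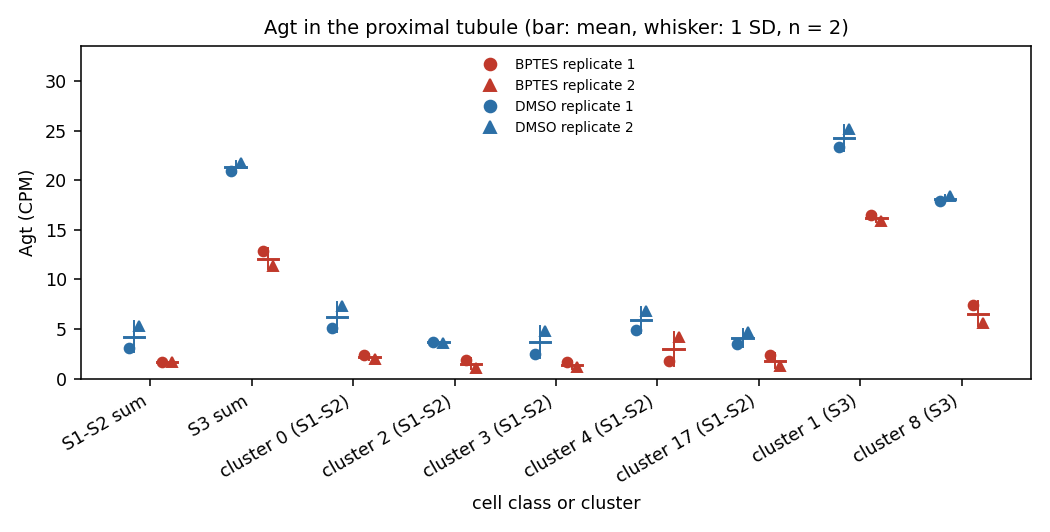
Agt level (CPM) in the proximal tubule segment sums and the 7 clusters with enough Agt counts, 1 point per library, with the mean as a bar and 1 SD (n = 2) as a whisker. In every column both BPTES points sit below both DMSO points, and the clusters are parts of the sums.

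Injury and macrophage markers moved in the same direction in these cells. The summed level of 6 injured-tubule markers, among them Havcr1 (kidney injury molecule) and Vcam1 (an adhesion protein), was 16.05 and 16.5 CPM under BPTES against 44.3 and 56.8 under DMSO in S3, where 2 of 5 tested fell. In S1-S2 it was 1.54 and 1.299 CPM under BPTES against 5.76 and 8.95 under DMSO, where 5 of 6 fell. Macrophage markers were at 11.8 and 10.6 CPM under BPTES against 23.8 and 24.5 under DMSO in S3 and 14.3 and 11.5 CPM under BPTES against 24.95 and 29.6 under DMSO in S1-S2, and 4 of 5 tested fell in each. No marker of either list was at 0 in either segment, and their part in the Agt result was not tested.

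In cells named as injured proximal tubule, which numbered 25, 21, 128 and 117 in BPTES 1, BPTES 2, DMSO 1 and DMSO 2, Agt was 43.6 and 41.9 CPM under BPTES against 20.5 and 40.2 under DMSO (0.52 ± 0.40, adjusted p = 0.851, edgeR). There both BPTES libraries were above both DMSO libraries, DMSO 2 only slightly below, and the difference was not called. In the thin limb Agt was 157 and 73.5 CPM under BPTES against 76.9 and 133 under DMSO, and the groups overlapped (0.13 ± 0.43, adjusted p = 0.999, edgeR). Whether these classes differ from the proximal tubule segments in their response was not tested.

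Ace, which encodes the converting enzyme, was highest in a leukocyte. Nonclassical monocytes, the patrolling blood monocytes, had 591 ± 46.4 CPM (mean ± SD, n = 4), and 91.9% to 96.9% of them held an Ace UMI, against 0.334% to 0.873% of T cells (81.5% to 89.7% against 0 to 0.741% when thinned to 5000 UMIs a cell). Neutrophils had 104 ± 38.6, classical monocytes 70.96 ± 32.5, fibroblasts 51.9 ± 27.4, cluster 38 33.5 ± 31.5, S3 30.1 ± 3.65 and unnamed cluster 28 25.5 ± 6.86 CPM. Each of these overlapped the next within 1 SD, taken over the libraries of both treatments, and by this measure only nonclassical monocytes stood clear of their neighbour. Within every single library, neutrophils were above classical monocytes. S1-S2 had 1.401 ± 0.225 CPM and endothelium 2.84 ± 1.04, whereas cluster 28 was led by Cldn5, Sox17 and Lgr5, the first a tight-junction gene of endothelium.

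Within the neutrophil class, cluster 44 had 288 CPM of Ace and cluster 14 had 3.32. Summed nonclassical monocyte markers were at 2011 CPM in cluster 44, 776 in cluster 14 and 3552 in nonclassical monocytes, and their part in the neutrophil level was not tested. In that class Ace was 139 and 135 CPM under BPTES against 70.4 and 69.9 under DMSO, with the groups apart and no call (0.90 ± 0.17, adjusted p = 0.346, edgeR). It was called by edgeR without DMSO 1 (adjusted p = 0.00224), without DMSO 2 (adjusted p = 0.0127) and without the low-count filter (adjusted p = 0.00398). Cluster 44, the one with Ace, made up 58 and 56 of the 272 and 262 neutrophils under BPTES against 27 and 33 of 262 and 331 under DMSO, and the part of this mix was not tested.

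No Ace effect of BPTES was called in any class by edgeR with all 4 libraries and the low-count filter. In nonclassical monocytes the level was 638 and 619 CPM under BPTES against 534 and 575 under DMSO, not overlapping but close (0.16 ± 0.11, adjusted p = 0.563, edgeR). In classical monocytes, the inflammatory blood monocytes, it was 112 and 80.5 CPM under BPTES against 52.2 and 38.9 under DMSO. Both BPTES values were above both DMSO values, but the difference was not called (1.10 ± 0.20, adjusted p = 0.0585, edgeR), in a class where 3.51% of all genes were. DESeq2 called it (adjusted p = 5.54e-06), as did edgeR without DMSO 1 (1.31, adjusted p = 0.0292) and with predicted doublets retained (0.93, adjusted p = 0.0358), whereas the finer clustering gave 0.26, adjusted p = 0.8297 (edgeR).

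Other markers moved in classical monocytes as well. Nonclassical monocyte markers were at 917 and 736 CPM under BPTES against 678 and 548 under DMSO, with 0 of 6 called by edgeR. Macrophage markers were at 3757 and 3405 CPM under BPTES against 6724 and 7731 under DMSO, with 4 of 6 lower. Classical monocyte markers were at 2352 and 2828 CPM under BPTES against 1840 and 1684 under DMSO, with 2 of 6 higher. At the finer clustering 1101 of the 1573 cells of this class were named macrophage and 470 classical monocyte. The latter were 123 of 330 and 164 of 354 cells under BPTES against 131 of 592 and 52 of 297 under DMSO. The part of these markers and of this mix in the Ace values was not tested.

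In type 2 dendritic cells Ace was 7.61 and 2.76 CPM under BPTES against 1.02 and 0.541 under DMSO, on 56 UMIs (2.63 ± 0.63, adjusted p = 0.0952, edgeR). Ace passed the low-count filter in this class only through the BPTES libraries, where it was higher, so this value is a description and no support. At the finer clustering 87 of the 790 cells of this class were named mature dendritic cell, 5 and 7 under BPTES against 38 and 37 under DMSO, and Ace in the cells still named type 2 was 2.30, adjusted p = 0.214 (edgeR). In cluster 38 it was 78.7 and 30.3 CPM under BPTES against 7.66 and 17.5 under DMSO (2.02 ± 0.57, adjusted p = 0.356, edgeR). Both classes had BPTES libraries above DMSO libraries on few UMIs, without a call. Leaving out a library gave 1.74 to 3.17 for the first and 1.21 to 2.83 for the second. Without the low-count filter edgeR called both (adjusted p = 0.000606 and 0.000707). In the sum of all CD45-positive cells Ace was 56.2 and 44.1 CPM under BPTES against 33.6 and 20.5 under DMSO (0.99 ± 0.27, adjusted p = 0.107, edgeR), called with DESeq2 (adjusted p = 8.26e-05) and by edgeR without DMSO 1 (1.39, adjusted p = 0.0201). Without plasma cells, whose share of this sum moved with treatment as given with Anpep below, it was 1.11 ± 0.23, adjusted p = 0.0523, edgeR. Nonclassical monocytes in that sum numbered 245 and 193 under BPTES and 185 and 87 under DMSO, and the part of this mix was not tested.

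In the proximal tubule the values of Ace lay on opposite sides of 0. S3 was at 31.5 and 33.4 CPM under BPTES against 24.9 and 30.7 under DMSO (0.29 ± 0.13, adjusted p = 0.456, edgeR), and S1-S2 at 1.33 and 1.16 CPM under BPTES against 1.41 and 1.700 under DMSO (-0.27 ± 0.21, adjusted p = 0.391, edgeR). Neither was called, but the S3 effect minus the S1-S2 effect, 0.57 ± 0.16, was (adjusted p = 0.00624, edgeR). Without DMSO 2 this call was lost (0.56, adjusted p = 0.0581, edgeR). Of the 6 members tested for such a difference 3 were called (Ace, Agtr1a and Enpep), where 27.8% of all genes were. Within S1-S2, Ace was 5.29 CPM in cluster 4 (led by Acy3, Inmt and Ttc36) and 0.423 to 1.40 CPM in the other clusters. Cluster 4 made up 10.6% and 10.04% of S1-S2 cells under BPTES against 18.5% and 20.7% under DMSO. The part of this mix in the Ace values was not tested. As a share of its level in both segments together, Ace was 13.4% in S1-S2 and 9.05% in T cells.

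Agtr1a, the main AT1 receptor gene of the mouse kidney, was found in stroma and proximal tubule. Fibroblasts had 129 ± 19.6 CPM, cluster 38 91.1 ± 34.2, S1-S2 53.2 ± 11.7, S3 50.6 ± 6.42, cluster 41 40.7 ± 18.9 and injured proximal tubule cells 21.9 ± 4.12 (mean ± SD, n = 4). Each overlapped the next within 1 SD. An Agtr1a UMI was found in 30.5% to 36.8% of S1-S2 cells, against 0.493% to 1.39% of T cells (13.3% to 17.2% against 0.188% to 0.417% when thinned to 5000 UMIs a cell).

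Agtr1a rose in S1-S2 under BPTES. It was 63.2 and 63.5 CPM under BPTES against 42.9 and 43.2 under DMSO, nearly equal within each group and well apart between them. The log2 fold change was 0.61 ± 0.078 (SE; adjusted p = 0.0101, edgeR), a 1.53-fold higher level, and the call was lost without BPTES 2 (0.56, adjusted p = 0.0963, edgeR). In S3 the level was 49.5 and 59.9 CPM under BPTES against 46.4 and 46.4 under DMSO, a difference that was not called (0.31 ± 0.12, adjusted p = 0.354, edgeR), and neither was that of both segments together (0.55 ± 0.10, adjusted p = 0.05697, edgeR). Without BPTES 1 edgeR called both, S3 at 0.45 (adjusted p = 0.0370) and the sum at 0.65 (adjusted p = 0.00945). The sum was also called without DMSO 2 (adjusted p = 0.01596, edgeR), without the low-count filter (adjusted p = 1.09e-05, edgeR) and with DESeq2 (adjusted p = 0.000426). The S3 effect minus the S1-S2 effect was -0.29 ± 0.086 and was called (adjusted p = 0.0101, edgeR). That call was lost with DESeq2 (-0.29, adjusted p = 0.0672) and, by edgeR, without BPTES 1 (-0.21, adjusted p = 0.116), DMSO 1 (-0.28, adjusted p = 0.105) or DMSO 2 (-0.32, adjusted p = 0.0674).

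The Agtr1a level differed between the clusters of a segment, and the cluster mix moved with the treatment. In S1-S2, cluster 3 (led by Snhg11 and 4921539H07Rik) had 119 ± 19.5 CPM and cluster 17 62.9 ± 10.6 (mean ± SD, n = 4), while clusters 0, 2, 4 and 7 had 11.6 to 24.7 CPM. In S3, cluster 8 had 94.7 ± 16.4 and cluster 1 15.4 ± 2.59 CPM. Cluster 3 made up 20.6% and 18.2% of S1-S2 cells in BPTES 1 and 2, against 17.1% and 15.8% in DMSO 1 and 2. Cluster 4, low in Agtr1a, made up 10.6% and 10.04% against 18.5% and 20.7%. The part of this mix in the rise of the sum was not tested.

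Tested alone, none of the 8 clusters was called for Agtr1a by edgeR. Cluster 3 was at 136 and 136 CPM under BPTES against 102 and 103 under DMSO (0.44, adjusted p = 0.0747), cluster 17 at 69.99 and 72.9 CPM under BPTES against 49.7 and 58.96 under DMSO (0.33, adjusted p = 0.172) and cluster 8 at 105 and 111 CPM under BPTES against 85.5 and 76.5 under DMSO (0.46, adjusted p = 0.0741). In these 3 clusters, the richest in the receptor, both BPTES libraries were above both DMSO libraries. In the other 5 the log2 fold change lay between -0.042 and 0.09.

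**Figure D4:**
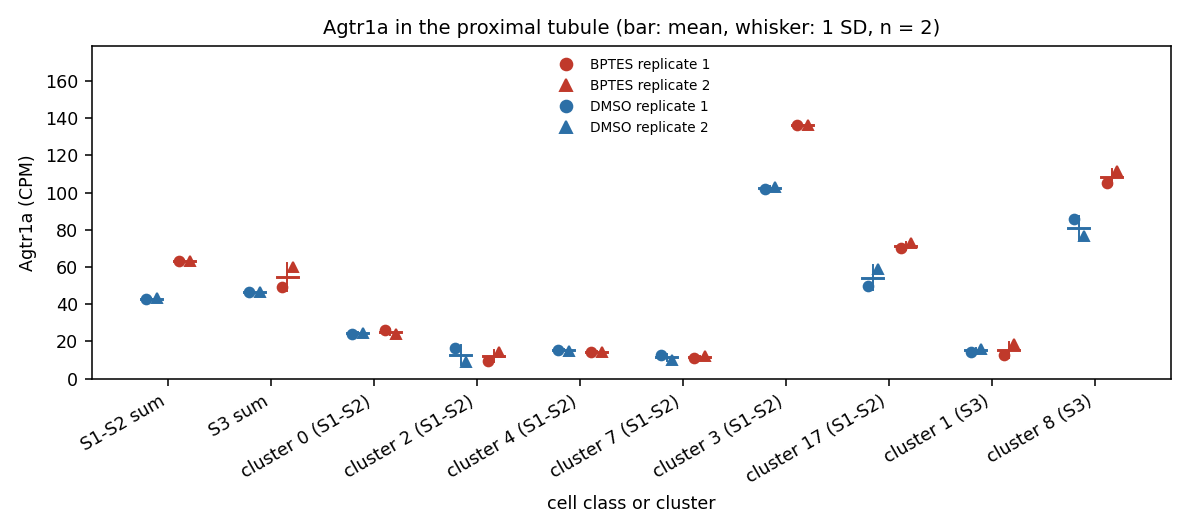
Agtr1a level (CPM) in the proximal tubule segment sums and their 8 tested clusters, 1 point per library, with the mean as a bar and 1 SD (n = 2) as a whisker. Clusters 3, 17 and 8 have the highest levels and BPTES points above DMSO points, while in the other clusters the groups lie close together.

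In stroma the Agtr1a groups overlapped. Cluster 38 was at 115 and 68.6 CPM under BPTES against 125 and 55.5 under DMSO (0.0015 ± 0.41, adjusted p = 0.9996, edgeR). Fibroblasts were at 108 and 154 CPM under BPTES against 133 and 120.2 under DMSO, with 18, 16, 35 and 195 cells in BPTES 1, BPTES 2, DMSO 1 and DMSO 2, and were not tested under the limit of 20 cells. Mural markers in cluster 38 summed to 4867 and 6551 CPM under BPTES against 7543 and 1276 under DMSO, lowest in DMSO 2, and their part in the values of cluster 38 was not tested.

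Agtr1b, the other AT1 receptor gene, was rare. Of its 62 UMIs over all barcodes, 52 were in 18 of the 249 cells of cluster 38, and 1 cell of DMSO 1 held 17. By library the cluster held 21 (BPTES 1), 7 (BPTES 2), 22 (DMSO 1) and 2 (DMSO 2) UMIs. The groups overlapped (0.26 ± 0.97, adjusted p = 0.997, edgeR), and the sign turned without BPTES 1 (-0.37, adjusted p = 0.999) or DMSO 2 (-0.66, adjusted p = 0.819, edgeR). Fibroblasts, the class highest in Agtr1a, had no Agtr1b UMI.

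Enpep, aminopeptidase A, which turns angiotensin II into angiotensin III, was spread over vessel, stroma and tubule. It was 144 ± 50.3 CPM in cluster 38, 96.5 ± 11.7 in endothelium, 80.8 ± 16.7 in the thin limb, 70.8 ± 5.23 in S3, 63.1 ± 24.1 in cluster 41 and 49.03 ± 4.44 in S1-S2 (mean ± SD, n = 4). Each overlapped the next within 1 SD. Within endothelium, cluster 46 (led by Plat, Ehd3 and Pi16) had 8.62 CPM against 106 in cluster 5 and 90.4 in cluster 27. An Enpep UMI was found in 49.2% to 56.2% of endothelial cells and 0.493% to 1.09% of T cells (30.98% to 37.9% and 0.208% to 0.741% when thinned to 5000 UMIs a cell).

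Enpep was called in no class by edgeR with all 4 libraries and the low-count filter. In endothelium it was 113 and 91.5 CPM under BPTES against 96.04 and 85.6 under DMSO, and the groups overlapped (0.19 ± 0.10, adjusted p = 0.512, edgeR). In S1-S2 it was 51.6 and 51.1 CPM under BPTES against 42.4 and 51.04 under DMSO (0.19 ± 0.11, adjusted p = 0.267, edgeR; called without DMSO 2 at 0.37, adjusted p = 0.0317), and in S3 it was 64.6 and 68.4 CPM under BPTES against 73.9 and 76.1 under DMSO (-0.10 ± 0.11, adjusted p = 0.845, edgeR). The segment difference, -0.28 ± 0.086, was called (adjusted p = 0.0129, edgeR). It was lost with DESeq2 (-0.28, adjusted p = 0.0739) and, by edgeR, with predicted doublets retained (-0.058, adjusted p = 0.764), at the finer clustering (-0.070, adjusted p = 0.752) and without DMSO 1 (-0.16, adjusted p = 0.408).

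Mme, neprilysin, which makes angiotensin 1-7 and degrades other peptides, was highest in a class outside the proximal tubule. Intercalated cells, the acid-base cells of the collecting duct, had 544 ± 222 CPM, cluster 41 144 ± 24.6, the thick ascending limb 142 ± 14.7, the thin limb 117 ± 13.2, S3 38.3 ± 2.64 and S1-S2 10.3 ± 0.815 (mean ± SD, n = 4). Cluster 41, with injured proximal tubule markers among its leading genes, and both limbs overlapped, and intercalated cells stood apart. An Mme UMI was found in 54.1% to 76.9% of intercalated cells and 0.246% to 0.521% of T cells, with median depths of 25539 to 29699.5 UMIs in intercalated cells. Thinned to 5000 UMIs a cell, the shares were 48.3% to 77.2% and 0 to 0.247%. Within the class, cluster 42 (led by Slc26a4, the chloride-bicarbonate exchanger pendrin, and Slc4a9) had 579 CPM and cluster 48 (led by Atp6v1g3 and Hmx2) had 294.

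In intercalated cells Mme was 257 and 486 CPM under BPTES against 675 and 757 under DMSO, in 66, 51, 61 and 104 cells of BPTES 1, BPTES 2, DMSO 1 and DMSO 2. The groups did not overlap, but the BPTES libraries were far apart and the difference was not called (-0.82 ± 0.29, adjusted p = 0.4301, edgeR). Leaving out a library gave -1.32 to -0.45, and edgeR called it without BPTES 2 (-1.32, adjusted p = 0.0129) and without the low-count filter (-0.83, adjusted p = 4.54e-05). In injured proximal tubule cells Mme was 24.5 and 26.2 CPM under BPTES against 52.1 and 44.2 under DMSO, also apart and not called (-0.89 ± 0.35, adjusted p = 0.677, edgeR). The thick ascending limb was at 142 and 139.5 CPM under BPTES against 126 and 162 under DMSO (0.13 ± 0.19, adjusted p = 0.978, edgeR) and S3 at 37.9 and 39.9 CPM under BPTES against 40.6 and 34.8 under DMSO (0.12 ± 0.11, adjusted p = 0.799, edgeR), with overlapping groups in both.

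Anpep, aminopeptidase N, also known as CD13 of myeloid cells, was shared by tubule, stroma and leukocytes. Type 1 dendritic cells, which cross-present antigen, had 107 ± 9.77 CPM, cluster 38 53.5 ± 25.01, intercalated cells 50.4 ± 4.64, fibroblasts 39.4 ± 13.8, S3 35.6 ± 2.56 and S1-S2 31.5 ± 2.45 (mean ± SD, n = 4). Type 1 dendritic cells stood apart, and each of the others overlapped the next within 1 SD. An Anpep UMI was found in 84.7% to 91.8% of type 1 dendritic cells and 1.17% to 1.31% of T cells, at median depths of 42032 to 50022 and 11162.5 to 11725 UMIs. Thinned to 5000 UMIs a cell, the shares were 40.2% to 45.9% and 0 to 0.822%.

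Anpep fell under BPTES in the sum of all cells counted as CD45-positive by their cluster. It was 12.3 and 13.2 CPM under BPTES against 20.5 and 21.9 under DMSO, with the groups clearly apart. The log2 fold change was -0.62 ± 0.087 (SE; adjusted p = 0.0292, edgeR), the 1 member called in this sum, where 8.74% of all genes were called. The call was lost without BPTES 1 (-0.52, adjusted p = 0.1297), BPTES 2 (-0.71, adjusted p = 0.162) or DMSO 2 (-0.57, adjusted p = 0.0542), all by edgeR. Type 2 dendritic cells in the sum numbered 146 and 127 under BPTES and 311 and 206 under DMSO, and macrophage markers were at 3030 and 2594 CPM under BPTES against 4988 and 6054 under DMSO. The part of this mix was not tested. Plasma cells, the antibody-secreting cells, gave 17.6% and 19.3% of the UMIs of the sum under BPTES against 1.83% and 3.16% under DMSO. Without plasma cells, an alternative added after the data were seen, Anpep was 13.9 and 15.3 CPM under BPTES against 20.8 and 22.3 under DMSO and was called (-0.56 ± 0.089, adjusted p = 0.0366, edgeR), where 8.97% of all genes were.

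Within single leukocyte classes Anpep was not called by edgeR with all 4 libraries and the low-count filter. Type 2 dendritic cells were at 14.97 and 21.1 CPM under BPTES against 30.9 and 36.4 under DMSO (-0.93 ± 0.19, adjusted p = 0.0578, edgeR). At the finer clustering, which set the mature dendritic cells of this class apart, the value was -0.95, adjusted p = 0.0555 (edgeR). Classical monocytes were at 11.3 and 17.6 CPM under BPTES against 22.7 and 23.01 under DMSO (-0.63 ± 0.22, adjusted p = 0.157, edgeR). Macrophages were at 5.199 and 7.94 CPM under BPTES against 9.64 and 10.4 under DMSO (-0.62 ± 0.22, adjusted p = 0.153, edgeR), and type 1 dendritic cells at 104 and 94.9 CPM under BPTES against 115 and 115 under DMSO (-0.22 ± 0.082, adjusted p = 0.272, edgeR). Both BPTES libraries were below both DMSO libraries in these 4 classes. The mix of cells in the classical monocyte class moved with treatment, as given with Ace above, and its part in the Anpep value was not tested. Type 2 dendritic cells were called by edgeR without BPTES 1 (-0.69, adjusted p = 0.0264), without BPTES 2 (-1.21, adjusted p = 0.00011) and without the low-count filter (-0.95, adjusted p = 1.13e-06). Without that filter edgeR also called macrophages (-0.63, adjusted p = 0.0163). In S1-S2 of the tubule the values lay the other way, at 32.8 and 34.1 CPM under BPTES against 28.6 and 30.7 under DMSO (0.23 ± 0.093, adjusted p = 0.1103, edgeR), called without the low-count filter (0.24, adjusted p = 0.0404, edgeR). In S3 the log2 fold change of Anpep was 0.053, and leaving out a library gave -0.051 to 0.16.

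**Figure D5:**
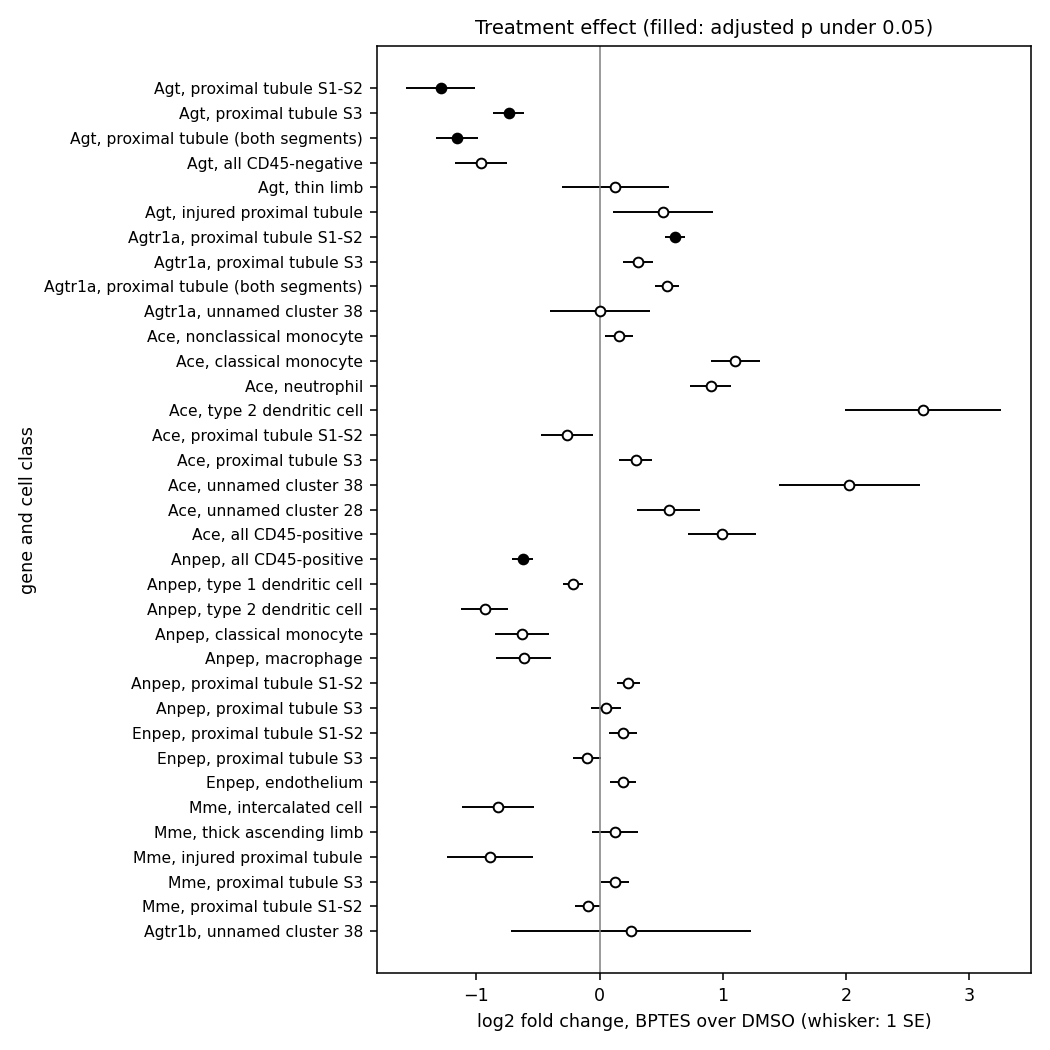
Log2 fold change, BPTES over DMSO, with 1 SE as a whisker for the genes and classes described, filled where edgeR's adjusted p is under 0.05; Ren1 is not drawn. The filled points are Agt in S1-S2, in S3 and in their sum, Agtr1a in S1-S2 and Anpep in the CD45-positive sum.

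The other genes of the pathway were read from 4 lists of 36 genes. Among 16 further renin-angiotensin genes, 0 of the 12 tested in S3 were called by edgeR, where 0.761% of all genes were. In S1-S2, 1 of the 12 tested was called higher and 0 lower by edgeR, where 19.8% of all genes were called. The list's median log2 fold change in S1-S2 was 0.11 against -0.0069 over all genes. Atp6ap2, the prorenin receptor and a proton pump subunit, was highest in intercalated cells at 444 ± 68.9 CPM, and Mas1, the angiotensin 1-7 receptor, in S3 at 2.86 ± 0.726 CPM (mean ± SD, n = 4).

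Of 8 further brush border peptidases, 2 of the 6 tested were called higher in S1-S2, where 19.8% of all genes were called. Folh1, a folate hydrolase, was at 364 and 369 CPM under BPTES against 199 and 236 under DMSO (0.81 ± 0.11, adjusted p = 0.0123, edgeR), a call lost without BPTES 2 (0.75, adjusted p = 0.103, edgeR). Dpep1, a dipeptidase, was at 141 and 148 CPM under BPTES against 98.6 and 114 under DMSO (0.50 ± 0.11, adjusted p = 0.02497, edgeR). Its call was lost without BPTES 2 (0.41, adjusted p = 0.165) or DMSO 1 (0.36, adjusted p = 0.0741), with predicted doublets retained (0.48, adjusted p = 0.0594) and at the finer clustering (0.45, adjusted p = 0.0553), all by edgeR. Both genes were higher in both BPTES libraries than in both DMSO libraries. Dpep1 was among the leading genes of cluster 0. That cluster made up 30.6% and 37.0% of S1-S2 cells under BPTES against 23.4% and 27.2% under DMSO. The part of this mix in the Dpep1 value was not tested.

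For 7 genes of AT1 receptor signalling, the median log2 fold change in S1-S2 was -0.20 against -0.0069 over all genes. Of these 7, 1 was called higher and 0 lower there, where 19.8% of all genes were called. The gene called was Gnaq, the G-protein subunit that couples the receptor, at 65.4 and 69.5 CPM under BPTES against 57.7 and 53.2 under DMSO (0.34 ± 0.084, adjusted p = 0.0291, edgeR). Its call was lost without BPTES 2 (0.24, adjusted p = 0.147), DMSO 1 (0.36, adjusted p = 0.0556) or DMSO 2 (0.32, adjusted p = 0.0711), with predicted doublets retained (0.22, adjusted p = 0.119) and at the finer clustering (0.27, adjusted p = 0.0771), all by edgeR. Plcb1, a phospholipase downstream of it, rose in the classical monocyte class, whose mix of cells moved with treatment as given above, at 304 and 370.3 CPM under BPTES against 140.3 and 121 under DMSO (1.40 ± 0.13, adjusted p = 0.0231, edgeR). That call was lost without BPTES 1 (1.55, adjusted p = 0.101) or BPTES 2 (1.22, adjusted p = 0.122) and at the finer clustering (0.22, adjusted p = 0.347), all by edgeR. In intercalated cells Plcb1 fell, at 35.02 and 49.98 CPM under BPTES against 100.5 and 139 under DMSO (-1.38 ± 0.22, adjusted p = 0.0412, edgeR), a call lost without DMSO 2 (-1.12, adjusted p = 0.199) and with predicted doublets retained (-0.95, adjusted p = 0.319), both by edgeR. In intercalated cells 0.328% of all genes were called.

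In B cells, where 3.03% of all genes were called, Ctsa was called lower (-0.76 ± 0.14, adjusted p = 0.0235, edgeR), at 95.4 and 98.6 CPM under BPTES against 146 and 185 under DMSO. Cluster 43 of this class, whose next best marker list was macrophage, made up 28 of 387 and 29 of 330 cells under BPTES against 52 of 343 and 69 of 287 under DMSO. Ctsa was highest in macrophages (327 ± 44.2 CPM, mean ± SD, n = 4), and the part of this mix was not tested. The call was lost with predicted doublets retained (-0.55, adjusted p = 0.115, edgeR). Klk1, the tissue kallikrein, was called higher there (1.52 ± 0.32, adjusted p = 0.0369, edgeR) at 16.4 and 9.94 CPM under BPTES against 4.41 and 4.90 under DMSO. These levels stand beside 14564 ± 8886 CPM in principal cells (mean ± SD, n = 4), whose part in the B cell values was not tested. That call was lost with DESeq2 (adjusted p = 0.0671) and, by edgeR, without BPTES 1 (1.14, adjusted p = 0.154), without DMSO 2 (1.63, adjusted p = 0.0521) and with predicted doublets retained (4.94, adjusted p = 0.514). In the sum of all CD45-positive cells, where 8.74% of all genes were called, Rnpep (-0.24 ± 0.043, adjusted p = 0.0417, edgeR) and Ctsa (-0.49 ± 0.055, adjusted p = 0.0215, edgeR), both peptidases, were called lower, and Plcb1 (0.85 ± 0.11, adjusted p = 0.0316, edgeR) was called higher. The lower macrophage markers and the larger plasma cell share of this sum under BPTES were given above with Anpep. Without plasma cells Rnpep was no longer called (-0.17, adjusted p = 0.0784, edgeR), while Ctsa (-0.42, adjusted p = 0.0306) and Plcb1 (0.96, adjusted p = 0.0308) were, by edgeR. Ctsa was highest in macrophages and classical monocytes, and the part of the macrophage share was not tested. Dpep1 was called higher in that sum as well (1.24 ± 0.15, adjusted p = 0.0228, edgeR), at 3.25 and 3.19 CPM under BPTES against 1.54 and 1.40 under DMSO, far below its level in S1-S2. Of 9 proximal tubule markers, 2 were called higher in the same sum, and their part in the Dpep1 value was not tested. Each of these 4 calls was lost without BPTES 1 and without BPTES 2 (adjusted p from 0.115 to 0.225, edgeR). Each at its own highest class, Mep1a, a meprin subunit, was at 776 ± 54.9 CPM in S3 and Kng2, a kininogen gene, at 1376 ± 80.2 CPM in the thick ascending limb (mean ± SD, n = 4).

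The genes whose levels over the 29 tested classes were most like those of each gene were found by Pearson's r of class means of log2(CPM + 1). This is a description across classes that share their libraries. For Agt they included Slc1a2 (r = 0.961) and Slc7a12 (0.949), both highest in the thin limb. For Ace they were 1700011I03Rik (0.839), Cyp2ab1 (0.817) and Sat1 (0.813), all highest in nonclassical monocytes. For Agtr1a they were C1qtnf3 (0.965), A730049H05Rik (0.964) and Nrxn2 (0.960), all 3 highest in cluster 38. For Ren1 the rule gave Lum (0.996), Jph2 (0.995) and Ebf2 (0.995), but Ren1 was at most 0.913 CPM in any tested class other than cluster 38, so these values rest on that 1 class and show no likeness beyond it. The fibroblast gene Dcn had UMIs in 49.4% of the cells of cluster 38 but in 2 of the 12 barcodes rich in Ren1. Mme was closest to Sall1 (0.937), Cox7a1 (0.937) and Tmem184a (0.932), Enpep to Lurap1l (0.914), Bok (0.894) and Fgf1 (0.890), and Anpep to Eps8 (0.817), 5730522E02Rik (0.813) and Lrrc3 (0.790).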

How the data were processed

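The authors deposited unnormalized UMI counts, a matrix of genes by barcodes for each library, made with Cell Ranger 8.0.1 on mm10 per the submitters' processing notes. Per the labels' protocols the kit was GEM-X 3′ v4. Barcodes with at least 500 UMIs, 300 genes and at most 50% mitochondrial UMIs were used. Of these, 2566 with the highest Scrublet scores were left out as predicted doublets (a share of each library that grows with its number of barcodes); Scrublet's own threshold marked 433. Up to 114 barcodes were shared between a pair of libraries. Cells were clustered (scanpy 1.11.5, 3000 variable genes, 40 components, Leiden resolution 1) without the 8 genes and named from 32 marker lists. Letting the injury and cycling lists compete as broad classes was chosen after the first clusters were seen. Counts of all cells of a class were added up within each library and fitted with edgeR 4.0.16 (TMM scaling, filterByExpr, quasi-likelihood test, Benjamini-Hochberg adjustment over all genes of a class), after a test on simulated data. A tdTomato entry was left out. Shares of cells with a UMI are unthinned unless given as thinned to 5000 UMIs a cell, which leaves out up to 576 shallower cells of a class and library. The genes and lists were chosen with earlier results of these data known. The rule for named genes was all 8 genes in every tested class, of which classes outside those with the highest levels are given by counts; of the other lists, genes past the threshold and the highest in a class; and the 3 most alike genes for each gene with at least 100 UMIs. Some genes that these rules name are not reported here. Alternatives were no low-count filter, DESeq2 1.42.0, RLE scaling, a 25% mitochondrial limit, a replicate block, each library left out in turn, predicted doublets retained and Leiden resolution 2 (the finer clustering). Single clusters, the CD45-positive sum without plasma cells and Ren1 over all barcodes were added after seeing the data.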

Additional observations from a re-analysis of the deposited data

Results flagged for a closer look

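In segment sums, the difference between BPTES and DMSO was called as unlike between proximal tubule segments by edgeR's interaction test for 3 genes. The mix of clusters within the segments moved with the treatment, and its part in these differences was not tested. The S3 effect minus the S1-S2 effect on the log2 scale was 0.57 for Ace, -0.28 for Enpep and -0.29 for Agtr1a. In the same test 27.8% of all genes were called. With DESeq2 the calls of Enpep (adjusted p = 0.0739) and Agtr1a (adjusted p = 0.0672) were lost. That of Enpep was also lost at the finer clustering and with predicted doublets retained (-0.058, adjusted p = 0.764, edgeR). Leaving out a library gave 0.47 to 0.67 for Ace, -0.42 to -0.16 for Enpep and -0.40 to -0.21 for Agtr1a, and each call was lost without at least 1 library. As a share of its level in both segments together, Ace was 13.4% in S1-S2 and 9.05% in T cells.

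Data outside the cell classes also held signal. The predicted doublets left out of the classes held 824 Ren1 UMIs. In barcodes over the mitochondrial limit, which no test used, Agtr1a was 22.4 and 22.9 CPM of non-mitochondrial UMIs in BPTES 1 and 2, a mean of 22.7, against 22.3 and 16.8 in DMSO 1 and 2.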

How the results depend on the processing

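Sums rest on 2 libraries a group, and Ren1, Agtr1b, cluster 38 and type 2 dendritic cell Ace rest on few cells or UMIs. For 50 log2 fold changes, 537 values under alternatives were compared: 429 stayed on their side of the threshold with the same sign, 52 lost a call, 36 gained one and 20 turned sign; the cause was not tested.

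The 3 called pairs of gene and class became 10 without the low-count filter and 4 to 7 leaving out a library. The 8 calls among the other lists became 48 without the filter, 13 with DESeq2 and 11 to 43 leaving out a library. The 1 gene called in the CD45 sums became 4 with DESeq2 and 0 to 5 leaving out a library. The 3 segment differences became 1 with DESeq2 and 1 to 4 leaving out a library. In S1-S2 the 3008 genes called became 241 with predicted doublets retained, 601 at Leiden resolution 2 and 4 to 2765 leaving out a library (4 without BPTES 2, 1706 without DMSO 1). In S3 the 109 became 568 without the filter, 181 with DESeq2, 292 with predicted doublets, 281 at resolution 2 and 202 to 379 leaving out a library. With the replicate block, where labels share only a number over 2 pairs, these counts were 10, 33, 2, 5, 5438 and 814, in the same order, and Agt in both segments together lost its call (-1.15, adjusted p = 0.0568).

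Unnamed clusters have no value with predicted doublets retained or at resolution 2, where clusters differ. Signs turned for these values, of which only Agtr1a in S1-S2 had been called. With predicted doublets retained these were Agt in the thin limb (-0.15), Enpep in S3 (0.015), Ren1 in the CD45-negative sum (-0.84) and, outside the 50 above, the segment difference of Anpep (0.0018). At resolution 2 Enpep in S3 was 0.0033. Agtr1a in cluster 38 was -0.011 with DESeq2 and -0.0029 with RLE scaling, Mme in the thick ascending limb -0.12 at the 25% limit, and Ren1 in the CD45-negative sum -0.0021 with the replicate block. Leaving out a library gave -0.55 to 0.61 for Agt in the thin limb, -0.43 to 0.63 for Agtr1a in cluster 38, -0.051 to 0.16 for Anpep in S3, -8.69 to 3.26 and -8.74 to 3.05 for Ren1 in cluster 38 and the CD45-negative sum, and -0.66 to 2.90 for Agtr1b. Agtr1a turned in clusters 2 (-0.022) and 4 (-0.042) tested alone.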
